A study of Mus musculus with 8 samples.

Results

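The experiment set Ticam1 knockout mouse embryonic fibroblasts (MEFs) given c-di-GMP against the same cells given DMSO. The 4 arrays were chosen by their titles, in which the knockout is written TICAM, out of 8 arrays in the series. The groups were c-di-GMP treated knockout cells, DMSO treated knockout cells, c-di-GMP treated wild-type cells and DMSO treated wild-type cells, with 2 arrays each. Wild-type arrays serve here for the shared spread and for comparisons between genotypes. MEFs are cultured stromal cells of the mouse embryo, and all groups grew in DMEM with 10% serum and antibiotics. c-di-GMP was transfected with a cationic lipid for 30 min at 8 µg/ml, and the other cells received DMSO in equal amount. Cells were harvested for RNA 4 h later, so each comparison is of a single time point. The sources used here do not say whether the DMSO cells received the lipid too, how the knockout allele was made, how many embryos the cells came from, or whether replicates were separate cultures. P-values therefore speak of the spread among these arrays alone, and that spread may be technical.

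Bacteria use cyclic di-GMP as a signalling nucleotide. Mammalian cells detect it with STING, an adaptor of the endoplasmic reticulum that recruits the kinase TBK1 and the transcription factor IRF3 to switch on interferon beta. Ticam1 encodes TRIF, the adaptor through which Toll-like receptors 3 and 4 reach the same kinase and factor. Secreted interferon then acts back on the cells through its receptor, JAK kinases and STAT factors, and raises a large set of antiviral genes. In fibroblasts these events usually run alongside NF-kB signalling, which raises chemokines and its own inhibitors.

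The second knockout DMSO array carried weak signal. Counts over gene groups are given with and without it, and single-gene differences are those without it unless stated otherwise, beside the value on each array. Its mean probe signal was 225.9, and 6468 of 25697 probes had a detection p-value under 0.05. The other 7 arrays had mean signals of 252.6 to 648.9 and 11254 to 11657 detected probes. The ratio of the 99th to the 5th percentile of signal was 7.55 on that array and 38.3 to 83.0 on the others. Over the genes described next, its log2 values correlated with those of the other knockout arrays at r of 0.81, against 0.99 among those 3, over genes and therefore not independent points. Left out after normalization, it leaves knockout DMSO cells with 1 array, whose spread is taken from the other groups. The targeted gene checked no label. Its brighter probe had signals of 124.6 and 157.5 (c-di-GMP) and 164.5 and 167.9 (DMSO) in knockout cells, against 90.7 and 157.2 (c-di-GMP) and 156.1 and 109.3 (DMSO) in wild-type cells. The values overlap between genotypes, 3 of the 16 values of the 2 Ticam1 probes passed the detection threshold, and the position of the probes against the deletion is unknown.

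Ticam1 knockout cells expressed a broad fibroblast programme. A gene counts as measured in them when its detection p-value was under 0.05 on both c-di-GMP arrays and the first DMSO array, called below the first 3 knockout arrays. This held for 7742 genes, 81.1% of the 9541 genes tested and 43.3% of the 17870 gene names in the tables. On the second DMSO array 4664 of the 7742 were detected too. A further 562 tested genes were detected on none of the 4 knockout arrays.

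Of 29 fibroblast marker genes on the array, 27 were measured there. Dcn, which encodes the collagen-binding proteoglycan decorin, had log2 intensities of 13.48 and 13.31 with c-di-GMP, against 13.52 and 14.67 with DMSO. Timp1, a metalloproteinase inhibitor gene, read 13.01 and 13.13 with c-di-GMP, against 13.03 and 13.98 with DMSO. The intermediate filament gene Vim read 12.87 and 12.75 with c-di-GMP, against 12.64 and 11.55 with DMSO. In these 3 genes the c-di-GMP arrays and the first DMSO array lie close together, and the second DMSO array stands apart. Col1a1 and Col1a2, the chains of type I collagen, the surface glycoprotein gene Thy1, the growth factor receptor gene Pdgfra and the mesenchymal transcription factor genes Prrx1 and Twist2 were also detected on all 4 knockout arrays. The 2 markers not measured by that rule were Postn, detected on 1 array of each treatment, and Fap.

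Contractile genes of smooth muscle and myofibroblasts were present as well, with 8 of 13 measured and the actin gene Acta2 among the 10 brightest probes of these cells. The brightest were otherwise probes for ribosomal proteins (Rpl41, Rplp1, Rps2, Rpl38, Rps12, Rpl37), the elongation factor Eef1a1, the prolyl isomerase Ppia and the predicted gene Gm9294. Brightness depends on the probe, so no gene's level is set against another's. Markers of other cell types were mostly absent. The leukocyte list had 1 of 16 genes measured, Cd3e, a T cell receptor component gene, at 5.47 and 5.76 with c-di-GMP, against 5.95 and 5.13 with DMSO. The epithelial list had 1 of 11 (Cdh1), the endothelial list 3 of 12 (Kdr, Tek, Flt1), the neural list 4 of 12, the skeletal and heart muscle list 2 of 13, the cartilage, fat and bone list 1 of 13 and the pluripotency list 0 of 10. The pan-leukocyte gene Ptprc and the endothelial genes Pecam1 and Cdh5 did not pass the detection filter. The summed signal of the 12 leukocyte genes tested was 1427 and 1599 (c-di-GMP) and 1587 and 1982 (DMSO) in knockout cells, against 5259 to 17235 on the wild-type arrays. Of these 12 genes, 7 were detected on no knockout array and passed the filter through wild-type arrays alone. That choice favours a higher wild-type sum, and the knockout signal of those 7 is background. Beside the genotype comparisons below stands this difference in leukocyte signal, whose part in them was not tested.

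No gene was called for a response to c-di-GMP in knockout cells. In limma, with all 8 arrays, 0 of 9541 genes (0%) passed an adjusted p of 0.05, and 254 had an unadjusted p under 0.05. Without the second DMSO array 0 genes (0%) passed as well, with 221 at an unadjusted p under 0.05. With the first DMSO array left out, so that the weak array alone stood for DMSO, 5480 genes passed. Over the 7742 measured genes, the 2 DMSO arrays themselves differed from each other with an SD of 1.42 log2 units, and 3680 genes differed by more than 1.

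Against the first DMSO array, the mean of the c-di-GMP arrays differed by a median of -0.01 log2 units with an SD of 0.22. The 2 c-di-GMP arrays differed from each other by an SD of 0.25. A mean of 2 arrays varies less than 1 array, so those 2 SDs are not like for like. Taken singly, the first and second c-di-GMP arrays differed from the first DMSO array with SDs of 0.28 and 0.24. These lie on either side of the 0.25 between the c-di-GMP arrays. In 99% of genes the c-di-GMP mean lay under 0.65 from the first DMSO array, and 3 genes (0.0387%) passed 1 log2 unit. Against that array, 21 genes did so on the first c-di-GMP array alone and 4 on the second. Between the 2 c-di-GMP arrays 15 genes did so. In wild-type cells the same difference, the c-di-GMP mean against the first DMSO array, passed 1 log2 unit in 282 of these genes (3.64%). Wild-type replicates were also farther apart. The 2 wild-type c-di-GMP arrays differed from each other by more than 1 in 218 genes (2.82%, SD 0.42), and the 2 wild-type DMSO arrays in 65 (0.840%). The 282 is therefore not a count of responding genes. In bulk RNA a gene changed in a few cells and one changed a little in all of them cannot be told apart.

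**Figure D1:**
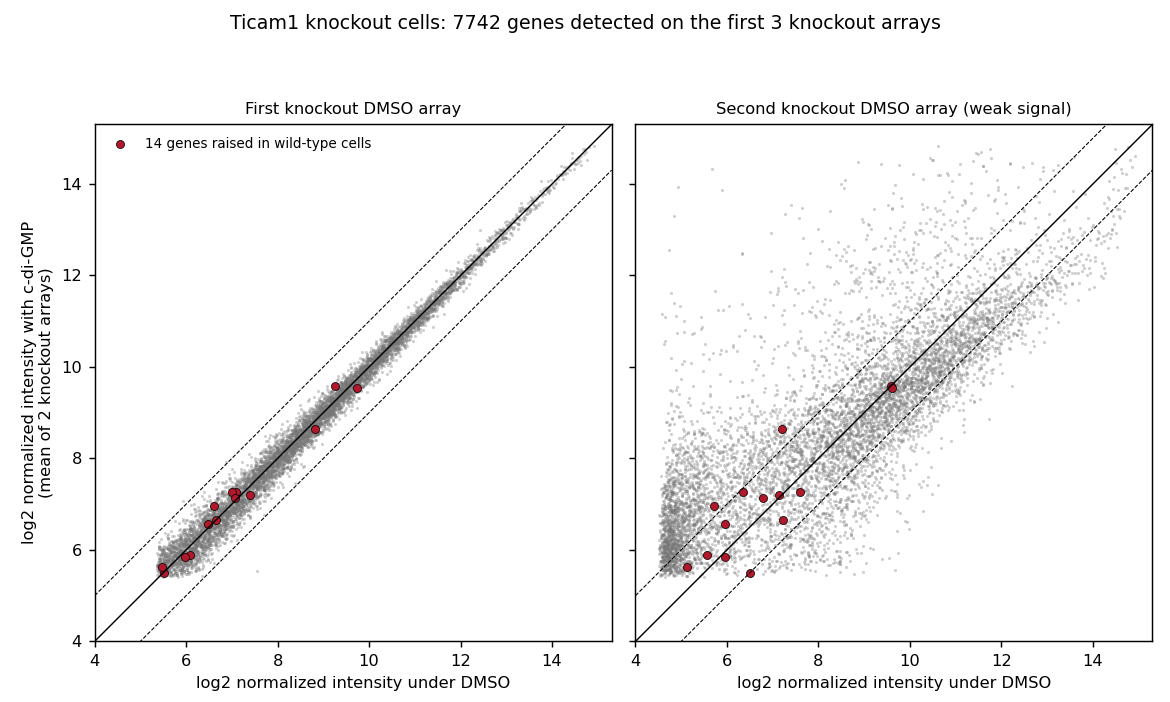
Each grey point is 1 of the 7742 genes measured in Ticam1 knockout cells, with the mean log2 intensity of the 2 c-di-GMP arrays upwards and the log2 intensity of the first (left) or second (right) DMSO array across. The solid line marks equal values, the dashed lines a difference of 1, and red points the 14 genes raised in wild-type cells. On the left 3 genes lie beyond the dashed lines, on the right 3683.

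How large a response could remain unseen was read from the 95% interval of each gene's difference in limma. Without the second DMSO array, the interval lay inside ±1 log2 unit, a change of less than 2-fold either way, for 6582 of the 7742 measured genes (85.0%) and for 79.8% of all genes tested. The farther limit of the interval had a median of 0.71, which is 1.64-fold. In 5% of genes it was no larger than 0.50 (1.42-fold), and in 95% no larger than 1.23 (2.34-fold). Intervals inside ±1.5 log2 units held for 98.8% of genes and inside ±2 for 99.9%. An equivalence test, which asks whether a change of 2-fold or more can be turned down at an adjusted p of 0.05, passed for 7086 of these genes (91.5%) and for 8383 of all 9541 tested (87.9%). In wild-type cells the same fit gave 6387 (82.5%) on the equivalence test and 6033 (77.9%) by interval.

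With all 8 arrays the intervals were wider. They lay inside ±1 for 2136 genes (27.6%), the equivalence test passed for 0 (0%) in limma, and the median farther limit was 1.39, or 2.62-fold. Leaving out a c-di-GMP array brought the number inside ±1 to 357 (first array) or 339 (second array), and without the first DMSO array the equivalence test passed for 815. In 95% of genes that limit was at most 3.43 (10.8-fold). Under median scaling in place of quantile normalization, 0 of the intervals lay inside ±1, with or without the second DMSO array. The 85.0% thus depends on the between-array normalization.

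The width also followed brightness. Without the second DMSO array, 98.7% of intervals lay inside ±1 in the brightest of 3 equal groups of measured genes, 89.5% in the middle group and 66.8% in the dimmest group, whose mean log2 intensities ran from 5.07 to 7.39. The median farther limit was 1.53-fold in the brightest group, 1.64-fold in the middle group and 1.85-fold in the dimmest group. Of the 1160 genes with a limit beyond 1, the estimate itself was beyond 1 in 3, and no interval lay wholly beyond 1. Intervals that left out 0 numbered 127 (1.64%), 49 on the higher and 78 on the lower side.

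**Figure D2:**
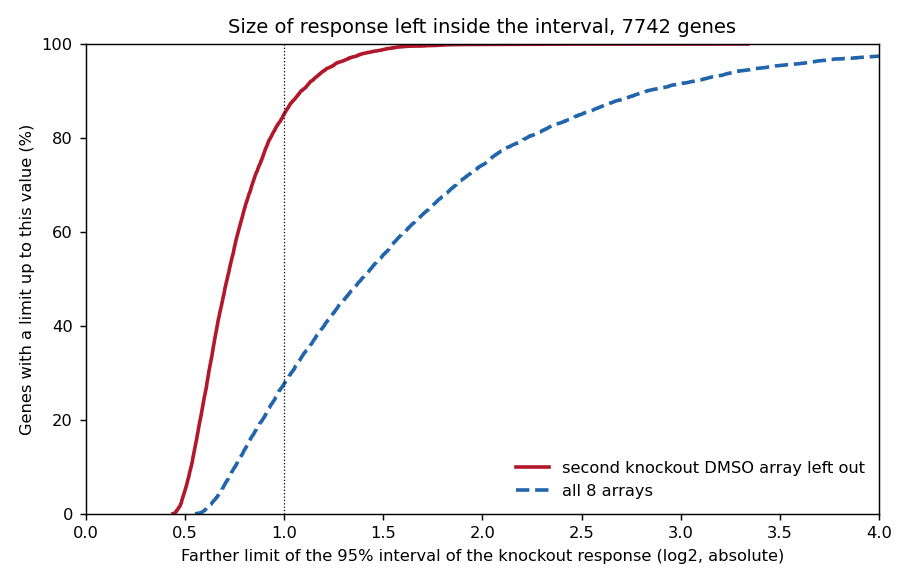
The share of the 7742 measured genes (percent, upwards) whose 95% interval for the knockout response reaches no farther than the value across (absolute log2 units). The solid line leaves out the second DMSO array and crosses 1 at 85.0%, and the dashed line uses all 8 arrays and crosses it at 27.6%.

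Genes that c-di-GMP raised in wild-type cells showed no such rise in knockout cells where they could be measured. Of the 56 risers called there with all 8 arrays (0.587% of genes tested), 14 were measured on the first 3 knockout arrays, 37 were detected on no knockout array, and 5 (Cd274, Ccl5, Hdc, Trim21, Mycl) on some. The 14 had knockout differences between -0.20 and 0.33 log2 units without the second DMSO array, with a median of 0.04, and 8 were positive. Their intervals ran from -0.80 to 0.82, so a rise beyond 1.77-fold lay outside all 14, and all 14 passed the equivalence test in that fit. Limits were wider with all 8 arrays: the median difference was 0.12, the highest upper limit was 1.85 log2 units, in Has2, 8 of the 14 intervals lay inside ±1, and no gene passed the equivalence test (adjusted p from 0.0675 to 0.388). In wild-type cells the same genes differed by 1.90 to 3.64, values that the choice of genes makes high. The number of wild-type calls was 57 (0.597%) with all 8 arrays, counting 1 gene that fell (0.0105%). It was 0 without any single wild-type array, 2 without either knockout c-di-GMP array and 560 (5.87%) without either knockout DMSO array. In these counts arrays were left out after normalization, filtering and probe choice, in which the knockout arrays also took part. Leaving out a knockout array thus moved those calls through the common variance alone.

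Promoters of 4 genes picked by name are printed as examples. They do not stand for the genes measured in knockout cells or for those at background there. Interferon targets that were measured, such as Ifit2, are not printed. They come from the RefSeq annotation of GRCm38.p6, 250 bases before to 50 after the start site, in the direction of the gene. Capitals mark matches on either strand to an interferon element, read as GAAA, any 2 bases and GAAA, or to an NF-kB element, read as GGG, any 2 bases and TTTCC. The interferon letters occur in 3.44% and the NF-kB letters in 1.63% of the 32851 promoters in the table. Where the table lists more than 1 promoter for a gene, as it does for Tnfaip3 and Casp4, the one listed first is printed. Tnfaip3 and Casp4 were measured in knockout cells, and Isg15 and Cxcl10 were detected on 0 of the 4 knockout arrays.
Tnfaip3, chr10:19015361-19015660, minus strand: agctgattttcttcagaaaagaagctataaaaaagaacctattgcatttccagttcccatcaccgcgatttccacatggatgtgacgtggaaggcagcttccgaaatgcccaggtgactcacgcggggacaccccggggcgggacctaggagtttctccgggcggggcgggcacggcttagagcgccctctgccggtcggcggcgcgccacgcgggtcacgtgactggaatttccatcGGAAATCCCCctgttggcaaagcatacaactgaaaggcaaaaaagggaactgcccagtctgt
Casp4, chr9:5308599-5308898, plus strand: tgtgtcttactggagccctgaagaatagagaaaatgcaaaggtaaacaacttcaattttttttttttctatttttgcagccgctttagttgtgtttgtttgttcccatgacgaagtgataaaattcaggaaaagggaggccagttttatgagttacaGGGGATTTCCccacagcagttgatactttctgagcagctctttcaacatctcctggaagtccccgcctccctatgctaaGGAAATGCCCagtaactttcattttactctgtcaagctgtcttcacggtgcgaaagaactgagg
Isg15, chr4:156200769-156201068, minus strand: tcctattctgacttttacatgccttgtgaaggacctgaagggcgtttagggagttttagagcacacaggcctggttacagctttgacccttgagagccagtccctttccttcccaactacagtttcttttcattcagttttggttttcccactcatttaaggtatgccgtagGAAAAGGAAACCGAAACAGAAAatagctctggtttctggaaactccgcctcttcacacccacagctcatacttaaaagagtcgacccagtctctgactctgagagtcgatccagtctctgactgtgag
Cxcl10, chr5:92348840-92349139, minus strand: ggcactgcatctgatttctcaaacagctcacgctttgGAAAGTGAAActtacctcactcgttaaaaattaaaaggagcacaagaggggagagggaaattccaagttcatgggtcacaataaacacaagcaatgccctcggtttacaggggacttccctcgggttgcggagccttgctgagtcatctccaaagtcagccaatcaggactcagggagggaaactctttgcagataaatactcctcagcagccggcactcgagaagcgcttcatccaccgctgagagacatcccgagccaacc
Tnfaip3 holds 1 NF-kB match and Casp4 holds 2, Isg15 has 3 overlapping interferon matches and Cxcl10 has 1. The other listed promoter holds 0 matches to either element for Tnfaip3, and 2 NF-kB matches for Casp4, whose listed promoters overlap. A match is a run of letters and not a bound site. Runs that miss the NF-kB letters narrowly, as in Cxcl10, stay unmarked. Nothing is read from which element a promoter holds.

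Has2, which encodes a hyaluronan synthase, had knockout values of 8.74 and 8.53 with c-di-GMP, against 8.82 and 7.20 with DMSO. Wild-type cells had 10.93 and 11.24 with c-di-GMP, against 7.24 and 7.65 with DMSO. The knockout c-di-GMP arrays lie between the 2 DMSO arrays, while the wild-type groups do not overlap. The knockout difference was -0.19 (95% interval -0.80 to 0.42), or 0.62 (-0.62 to 1.85) with all 8 arrays. The wild-type difference was 3.64, and the knockout response was smaller by 3.83 ± 0.34 (SE, limma adjusted p = 0.00905, without the second DMSO array).

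Il15, a cytokine gene that sustains NK and memory T cells, read 7.26 on both knockout c-di-GMP arrays and 7.08 and 6.35 with DMSO. Wild-type cells had 10.30 and 10.34 with c-di-GMP, against 7.57 and 7.48 with DMSO. The knockout difference was 0.18 (-0.26 to 0.62), or 0.55 with all 8 arrays, and the responses differed by -2.62 ± 0.24 (adjusted p = 0.0102). Tnfaip3, whose product A20 restrains NF-kB, had 7.28 and 7.25 with c-di-GMP in knockout cells and 7.00 and 7.59 with DMSO. Its wild-type values were 10.97 and 10.81 with c-di-GMP, against 8.76 and 8.77 with DMSO. Its knockout difference was 0.26 (-0.20 to 0.71), or -0.04 with all 8 arrays, and the responses differed by -1.87 ± 0.25 (adjusted p = 0.0286).

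Casp4, the inflammatory caspase that senses cytosolic lipopolysaccharide, had knockout values of 6.67 and 6.64 with c-di-GMP, against 6.65 and 7.22 with DMSO. Its knockout difference was 0.01 (-0.68 to 0.70), or -0.28 with all 8 arrays, and its wild-type difference 2.40. The purine enzyme gene Xdh, the phosphatase gene Ppm1k, the kinesin gene Kif5c, the centriole gene Cenpj, and Rgcc, Enpp4, Lrch1 and Aftph stood likewise between -0.20 and 0.33 in knockout cells. Over the 14, 12 were called for a smaller knockout response without the second DMSO array, against 79 of 9541 (0.828%). These genes were chosen for a rise on the same wild-type arrays, which is 1 side of the tested difference, so the choice raises that count and nothing is read from its excess over the background. The exceptions were the kinase gene Ripk2 (-2.01, adjusted p = 0.0588) and the microtubule-severing gene Katna1 (-1.62, adjusted p = 0.0517). With all 8 arrays 0 of the 14 passed that test in limma (adjusted p from 0.161 to 0.710), 14 had an unadjusted p under 0.05, and 4 of 9541 genes passed in all (0.0419%). Those 4 became 4628 without the first knockout DMSO array and 0 without any single one of the other arrays, apart from the second knockout DMSO array. In both fits the upper limit of the knockout interval lay under the lower limit of the wild-type interval for each of the 14. The choice of genes by their wild-type rise favours that order as well. It was not counted over all genes, and nothing is read from it.

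**Figure D3:**
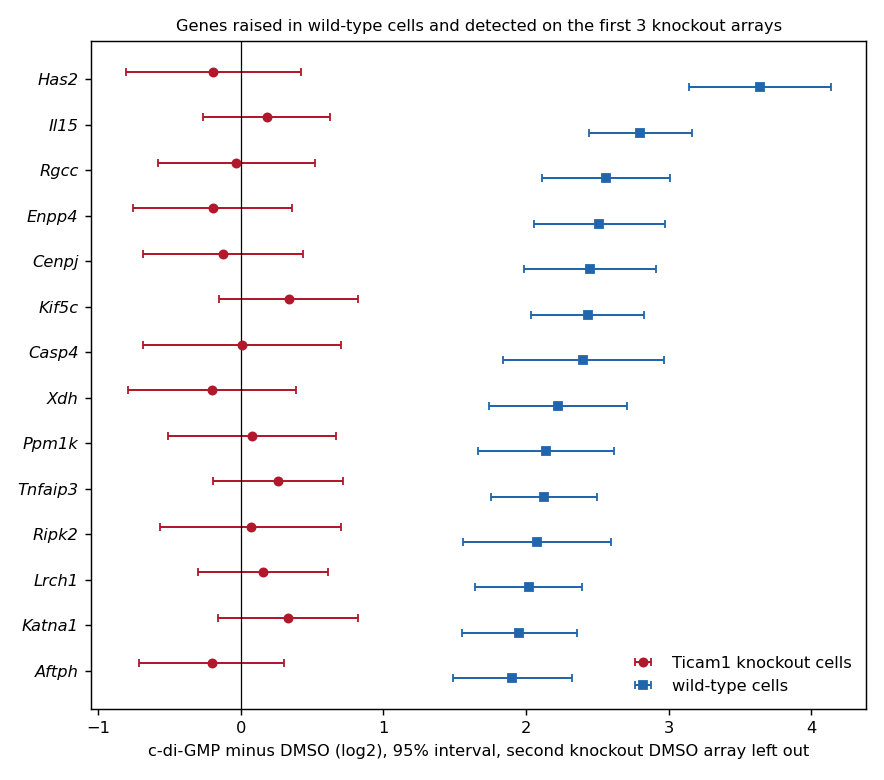
Difference between c-di-GMP and DMSO (log2, across) with its 95% interval for the 14 genes called as raised in wild-type cells and measured in knockout cells, second knockout DMSO array left out. Knockout values (red circles) sit between -0.20 and 0.33 and wild-type values (blue squares) between 1.90 and 3.64, with no overlap of the 2 intervals in any gene. The genes were chosen for their wild-type rise, which favours this separation.

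A wider set was compared by count. Without the second knockout DMSO array, 372 genes were called as raised by c-di-GMP in wild-type cells (3.90%) and 188 as lowered (1.97%), of which 221 and 159 were measured in knockout cells. The 221 had a median difference of 0.01 in knockout cells and 1.18 in wild-type cells. Their knockout values ran from -0.64 to 0.64, with quartiles at -0.10 and 0.23, and 201 of 221 intervals (91.0%) lay inside ±1. The 159 genes lowered in wild-type cells had medians of -0.02 in knockout cells and -0.98 in wild-type cells, and 144 intervals (90.6%) lay inside ±1. The knockout medians were 0.23 and 0.13 with all 8 arrays, and 71 (32.1%) and 42 (26.4%) of the intervals lay inside ±1. Over all measured genes the share inside was 85.0% without the second knockout DMSO array and 27.6% with all 8 arrays. Nothing is therefore read from the shares of these 2 sets. The test of the difference between responses passed for 29 of the 221 and 3 of the 159 without the second knockout DMSO array, against 0.870% of all genes tested, and for 0 of both with all 8 arrays in limma (102 and 68 at an unadjusted p under 0.05). Choosing genes by their wild-type call raises these counts too.

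For genes at background in knockout cells only a limit can be given. Of the 56 risers, 39 were undetected on both knockout c-di-GMP arrays. With c-di-GMP their level in knockout cells was lower than in wild-type cells by at least 2.61-fold to at least 533-fold, with a median of 14.2. These genes were chosen as raised on the wild-type arrays and undetected on the knockout c-di-GMP arrays. A lower knockout level followed from that choice, and nothing is read from its direction. The far end was the antiviral gene Rsad2 at 533-fold and the chemokine gene Cxcl10 at 510-fold. Much of that gap was there without c-di-GMP. With DMSO, Rsad2 read 11.54 and 11.03 in wild-type cells, against 4.64 and 4.76 in knockout cells. Wild-type Cxcl10 read 11.39 and 10.85 with DMSO. The bounds thus compare levels and do not measure a response, which in wild-type cells was 9.01-fold for Rsad2 and 9.67-fold for Cxcl10. Cxcl10 had knockout values of 5.01 and 5.41 with c-di-GMP, against 4.87 and 4.79 with DMSO, at detection p-values of 0.0501 or more. Ifnb1, the interferon beta gene, read 4.68 and 5.02 with c-di-GMP, against 4.89 and 4.54 with DMSO.

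Genes that crossed the detection threshold were also counted. In knockout cells 169 genes were detected on both c-di-GMP arrays and neither DMSO array, and in wild-type cells 134. Their rises over the detection limit were small in knockout cells: the bound against the first DMSO array had a median of 0.29 log2 units and passed 1 in 2 genes, up to at least 2.53-fold for the RING finger gene Rnft1. In wild-type cells the bound was taken against both DMSO arrays. Its median was 0.41 and 27 genes passed 1, up to at least 23.9-fold for Calhm6. With the first DMSO array alone as the rule, 179 genes were detected on both c-di-GMP arrays and not there in knockout cells, and 175 in wild-type cells. In the other direction 202 genes were detected on the first DMSO array and neither c-di-GMP array in knockout cells, and 353 in wild-type cells.

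The machinery between c-di-GMP and interferon was largely expressed in knockout cells. Of 29 genes of the STING pathway on the array, 21 were measured, and 19 of their intervals lay inside ±1 without the second DMSO array (90.5%, near the 85.0% of all measured genes). In the fit of all 8 arrays 4 of the 21 lay inside, against 27.6% of all measured genes, and the median difference was 0.31, against -0.07 without the second DMSO array. None was called in either fit, and 0 had an unadjusted p under 0.05 in limma. Sting1 itself was not analysed here. Cgas, the cytosolic DNA sensor gene, read 6.43 and 6.60 with c-di-GMP, against 6.57 and 5.01 with DMSO, a difference of -0.05 (-0.87 to 0.77). The kinase gene Tbk1 read 10.19 and 10.09 with c-di-GMP, against 10.28 and 11.01 with DMSO, a difference of -0.14 (-0.68 to 0.41). Irf3 read 9.88 and 9.94 with c-di-GMP, against 9.93 and 10.61 with DMSO, a difference of -0.02 (-0.47 to 0.42). In each of these 3 genes the c-di-GMP arrays lie close to the first DMSO array, and the second DMSO array is the one that differs.

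The related kinase gene Ikbke (-0.10), the helicase gene Ddx41 (-0.07), the ubiquitin ligase genes Trim32 (0.10), Trim56 (-0.20), Rnf5 (-0.30), Traf3 (0.01) and Traf6 (-0.10), the TBK1 adaptor genes Tank (0.05) and Azi2 (0.30), and Mavs (-0.13), the adaptor of RNA sensors, had intervals inside ±1. So did Slc19a1 (0.28), whose human counterpart carries cyclic dinucleotides, and the trafficking genes Tmem203 (-0.15), Stim1 (0.28), Sec24c (0.11) and Sar1a (-0.01). The 2 intervals that reached beyond were those of the channel gene Lrrc8a (-0.33, -1.15 to 0.50) and the DNA exonuclease gene Trex1. Trex1 read 6.45 and 6.06 with c-di-GMP, against 6.89 and 5.00 with DMSO, a difference of -0.64 (-1.29 to 0.02). Samhd1, which breaks down nucleotides, read 8.36 and 8.55 with c-di-GMP, against 8.65 and 7.59 with DMSO. Its difference was -0.20 in knockout cells and 2.20 in wild-type cells, and the responses differed by -2.39 ± 0.27 (adjusted p = 0.0183). Irf7, Ifih1, Ddx58, Ifi203, Ifi204, Zdhhc1 and Tbkbp1 were not measured by the detection rule.

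Toll-like receptor genes and adaptors had 15 of 22 measured. Tlr4, the lipopolysaccharide receptor gene that signals partly through TRIF, read 6.57 and 6.47 with c-di-GMP, against 6.63 and 4.78 with DMSO, a difference of -0.11 (-0.59 to 0.37). Tlr3, the other receptor gene that uses TRIF, was not measured. Myd88, which encodes the adaptor of most other Toll-like receptors, read 9.94 and 10.00 with c-di-GMP, against 10.05 and 8.62 with DMSO, a difference of -0.08 (-0.60 to 0.45) against 1.68 in wild-type cells (test of the difference, adjusted p = 0.0501). Tlr2 had -0.07 (-0.59 to 0.46) in knockout cells and 2.23 in wild-type cells, and the responses differed by -2.30 ± 0.29 (adjusted p = 0.0256). With all 8 arrays Tlr2 stood at 1.80 in knockout cells, since it read 4.74 on the second DMSO array and 8.47 on the first. Among the 15 genes the TAK1 kinase gene Map3k7 had the lone unadjusted p under 0.05, at -0.61 (-1.18 to -0.04, adjusted p = 1), and 12 intervals lay inside ±1. The fit of all 8 arrays put 2 of the 15 there, around a median of 0.58, against -0.11 without the second DMSO array.

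Of 18 interferon receptor and JAK-STAT genes, 14 were measured, and 13 of their intervals lay inside ±1 (92.9%) without the second DMSO array and 2 with all 8 arrays. Ifnar2, a subunit gene of the type I interferon receptor, read 5.72 and 6.38 with c-di-GMP, against 6.15 and 9.12 with DMSO. The other subunit gene, Ifnar1, did not pass the detection filter. The kinase genes Jak1 (-0.11), Jak2 (-0.08) and Tyk2 (-0.02) and the transcription factor genes Stat2 (0.15), Stat3 (0.30) and Irf9 (-0.23) had intervals inside ±1. Irf1, an early interferon and NF-kB target, read 10.36 and 10.26 with c-di-GMP, against 10.27 and 5.69 with DMSO. Its difference was 0.04 (-0.49 to 0.58) without the second DMSO array and 2.33 with it, against 1.90 in wild-type cells. The responses differed by -1.85 ± 0.29 in the first case (adjusted p = 0.0452) and by 0.44 in the second (adjusted p = 0.923). Socs1, a feedback inhibitor of JAK kinases, read 5.60 and 6.08 with c-di-GMP, against 5.85 and 4.77 with DMSO in knockout cells, and the responses differed by -2.39 ± 0.35 (adjusted p = 0.0412).

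**Figure D4:**
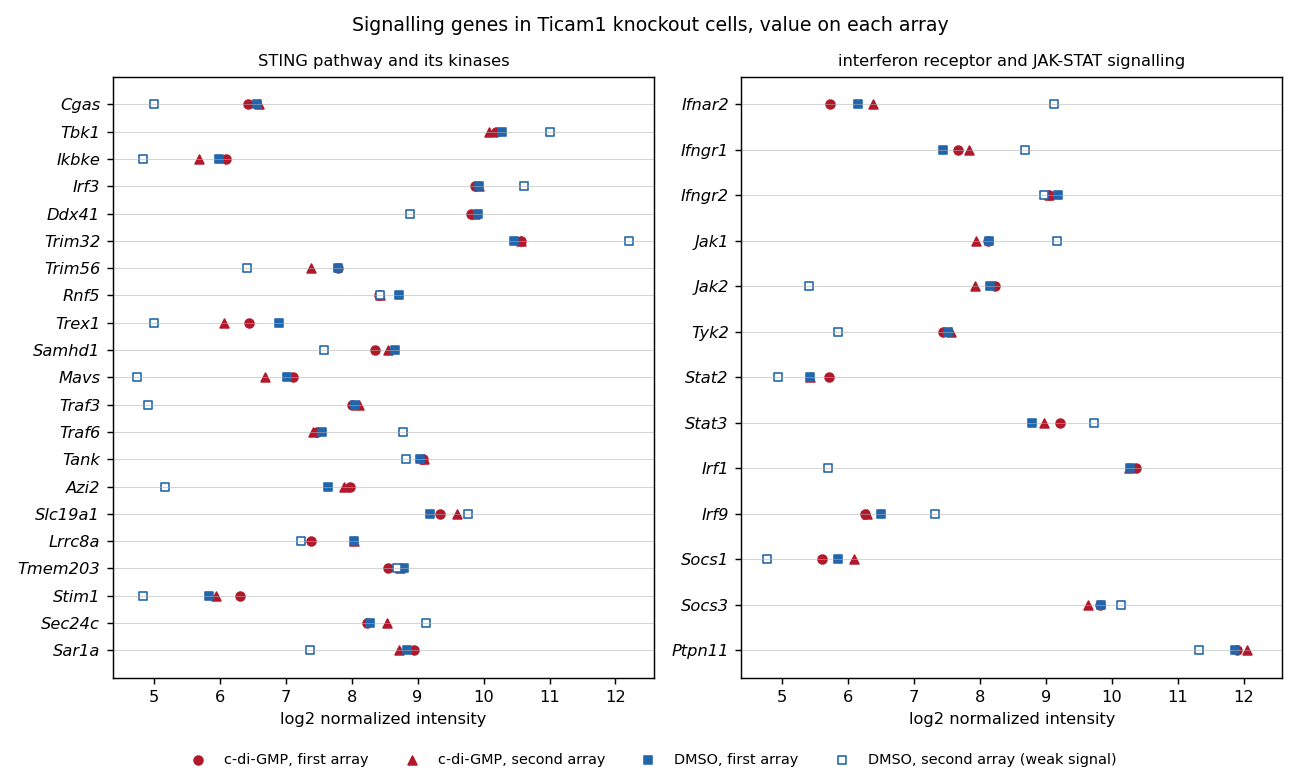
Log2 intensity (across) on each of the 4 knockout arrays for the 21 STING pathway genes (left) and 13 interferon receptor and JAK-STAT genes (right) measured there. Red circles and triangles are the c-di-GMP arrays, filled blue squares the first and open squares the second DMSO array. The open squares leave the row's cluster in most genes, as for Irf1 at 5.69 beside 10.26 to 10.36.

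Interferon-stimulated genes were mostly at background in knockout cells. Of 58 on the array 50 were tested, 26 of these were detected on no knockout array, and 17 were measured. The 17 had a median difference of 0.15 without the second DMSO array, 11 of them positive, against -0.01 over all measured genes, and a wild-type median of 0.94. None was called, 1 had an unadjusted p under 0.05 in limma, and 14 intervals lay inside ±1. The median was 0.43 with all 8 arrays, against 0.13 over all measured genes, and 2 intervals lay inside ±1. That 1 gene was Bst2, whose product tethers budding virions. Bst2 read 6.83 and 6.66 with c-di-GMP, against 6.19 and 8.29 with DMSO, a difference of 0.56 (0.08 to 1.03, adjusted p = 1) that turns to -0.49 with all 8 arrays.

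Ifit2, which binds viral RNA, read 9.16 and 9.02 with c-di-GMP, against 8.90 and 7.68 with DMSO. Its difference was 0.19 (-0.34 to 0.73) in knockout cells and 2.62 in wild-type cells, and the responses differed by -2.43 ± 0.29 (adjusted p = 0.0226). Ifit3 had 0.26 (-0.24 to 0.75), Gbp2, a guanylate-binding protein gene, 0.23 (-0.26 to 0.71), and Zbp1, a sensor of Z-form nucleic acids, 0.43 (-0.31 to 1.18). The list members Irgm1 (-0.12), Ifitm3 (0.16) and Eif2ak2 (-0.08) had intervals inside ±1. Ifitm3 read 12.99 and 12.87 with c-di-GMP, against 12.77 and 6.97 with DMSO, so that with all 8 arrays it would stand at 3.06. Isg15 was undetected on all 4 arrays, at 5.34 on both c-di-GMP arrays and 4.89 and 4.82 with DMSO. Its difference of 0.45 (0.01 to 0.89, adjusted p = 1) lies wholly below the detection threshold.

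Cytokine and chemokine genes had 14 of 32 measured, with a median of 0.00 in knockout cells and 0.61 in wild-type cells, 0 called, 1 at an unadjusted p under 0.05 and 12 intervals inside ±1 without the second DMSO array. The knockout median was 0.29 with all 8 arrays, and 2 intervals lay inside. The neutrophil chemokine gene Cxcl1 read 12.89 and 12.86 with c-di-GMP, against 12.91 and 12.96 with DMSO, the 4 arrays lying close together. Its difference was -0.03 (-0.53 to 0.47). Ccl2, which attracts monocytes, read 11.29 and 11.35 with c-di-GMP, against 10.86 and 9.73 with DMSO. Both c-di-GMP arrays lie above both DMSO arrays, and the difference was 0.45 (0.01 to 0.90, adjusted p = 1), or 1.02 with all 8 arrays (adjusted p = 0.529). Its neighbour in function Ccl7 stood at -0.13 (-0.58 to 0.32), Il18 at -0.48, Il33 at 0.34 (-0.43 to 1.11) and Tslp at 0.08 (-0.66 to 0.82). Il6 and Tnf were undetected on all 4 knockout arrays.

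NF-kB subunits, inhibitors and targets were better covered, with 25 of 30 measured, a median of 0.08, 0 called or at an unadjusted p under 0.05 in limma without the second DMSO array, and 18 intervals inside ±1. The median was 0.34 with all 8 arrays, 6 intervals lay inside ±1, and Nfkbie (0.89, 0.05 to 1.72) and Ptgs2 (1.03, 0.10 to 1.97) had an unadjusted p under 0.05, with 0 called. The subunit genes Nfkb1 (-0.03) and Rela (-0.09) had intervals inside ±1. The inhibitor gene Nfkbia read 9.70 and 9.50 with c-di-GMP, against 9.18 and 8.52 with DMSO, a difference of 0.42 (-0.14 to 0.97). Nfkbie read 6.87 and 6.51 with c-di-GMP, against 5.94 and 5.67 with DMSO, a difference of 0.75 (-0.09 to 1.59). The prostaglandin synthase gene Ptgs2 read 6.79 and 6.40 with c-di-GMP, against 5.98 and 5.14 with DMSO, a difference of 0.62 (-0.14 to 1.38). In Nfkbia, Nfkbie and Ptgs2 both c-di-GMP arrays lie above both DMSO arrays. On the second DMSO array Nfkbie and Ptgs2 lay under the lowest detected value of that array (7.53), so there the order rests on the first. How many of all measured genes show that order was not counted, so nothing is read from it in these genes or in Ccl2.

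Antigen presentation genes had 9 of 18 measured, with a median of 0.08 and 7 intervals inside ±1 without the second DMSO array, and 0.00 and 5 with all 8. Tapbp, whose product loads peptides on MHC class I, was the member with an unadjusted p under 0.05, at 0.64 (0.04 to 1.25, adjusted p = 1). It read 6.24 and 5.88 with c-di-GMP, against 5.41 and 4.61 with DMSO. The light chain gene B2m (-0.08) and the immunoproteasome and activator genes Psmb10 (-0.02) and Psme1 (-0.01) had intervals inside ±1.

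Immediate early genes, which report signalling and stress within hours, had 20 of 29 measured, a median of 0.13 with 13 positive, and 16 intervals inside ±1. Using all 8 arrays, the median was 0.42 and 8 intervals lay inside. The 2 with an unadjusted p under 0.05 without the second DMSO array were Egr2 and Ccn2. Egr2, a zinc finger factor gene, read 7.49 and 7.44 with c-di-GMP, against 6.81 and 4.93 with DMSO, a difference of 0.66 (0.15 to 1.16, adjusted p = 1). Ccn2, a matricellular gene, read 12.98 and 12.99 with c-di-GMP, against 12.43 and 12.93 with DMSO, a difference of 0.56 (0.12 to 1.00, adjusted p = 1). The c-di-GMP arrays lie above both DMSO arrays in both genes, in Ccn2 only narrowly above the second. Egr2 lay under the lowest detected value of the second DMSO array (7.53), so its order rests on the first. The share of all measured genes with that order was not counted. Junb (0.52, -0.13 to 1.17), Jun (0.42, -0.12 to 0.95) and Egr1 (0.34, -0.15 to 0.83) were also positive. Myc stood at -0.53 (-1.50 to 0.43).

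Housekeeping and stress programmes were measured nearly in full. Replication and mitosis genes had 26 of 28 measured with a median of 0.08 and 23 intervals inside ±1, the kinase gene Cdk1 standing at 0.08 (-0.35 to 0.52). Unfolded protein genes had 18 of 20 with 17 inside, and the chaperone gene Hspa5 stood at 0.02 (-0.60 to 0.64). Heat and oxidative stress genes had 18 of 22 with 14 inside. The widest there was the heme oxygenase gene Hmox1 at 0.68 (-0.43 to 1.80). Cell death genes had 19 of 24 with 15 inside, and glycolysis and hypoxia genes 16 of 20 with 15 inside. Sterol synthesis genes had 18 of 21 with 17 inside and a median of 0.04 in knockout cells, against -0.52 in wild-type cells. Ribosomal protein genes had 15 of 18 with 15 inside. Their median was 0.01 without the second DMSO array and 0.92 with it. In these 7 lists limma called 0 genes in knockout cells in either fit, and without the second DMSO array 1 gene had an unadjusted p under 0.05, the small heat shock gene Hspb8 at -0.54 (-1.04 to -0.05). Fibroblast markers had a median of -0.03, with 24 of 27 intervals inside ±1 and 0 at an unadjusted p under 0.05. The number inside with all 8 arrays was 10 of 26 for replication, 5 of 18 for unfolded protein, 4 of 18 for heat and oxidative stress, 6 of 19 for cell death, 3 of 16 for glycolysis, 7 of 18 for sterol synthesis, 3 of 15 for ribosomal protein and 6 of 27 for fibroblast marker genes.

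**Figure D5:**
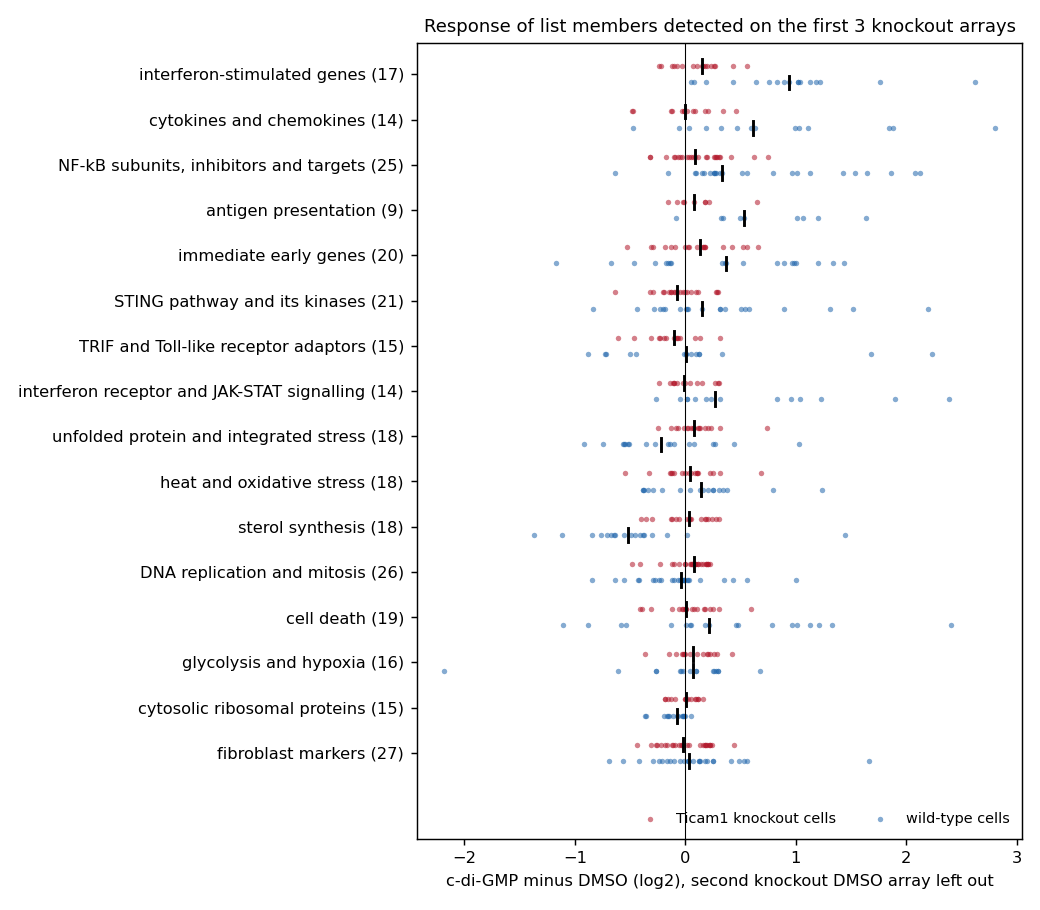
Difference between c-di-GMP and DMSO (log2, across) of each member measured in knockout cells, for the lists named upwards, second knockout DMSO array left out, with the number of members in brackets. Red points above are knockout and blue points below wild-type values, and black bars are medians. Over the lists drawn, knockout medians lie between -0.11 and 0.15, and wild-type medians reach 0.94 in interferon-stimulated genes and -0.52 in sterol synthesis.

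The genes at the edge of the knockout comparison had small p-values that did not pass. Without the second DMSO array the 10 smallest, each at an adjusted p of 1, belonged to Shmt1, A130010J15Rik, Rab7b, Thbs1, Zfp52, Ado, H2-T3, Map2k7, Rasl11a and Rcc1l. Thbs1, which encodes the matrix protein thrombospondin 1, read 7.35 and 6.77 with c-di-GMP, against 5.94 and 4.76 with DMSO, a difference of 1.12 (0.41 to 1.82). Shmt1, a folate cycle enzyme gene, read 6.63 and 6.61 with c-di-GMP, against 5.75 and 4.65 with DMSO, a difference of 0.87 (0.42 to 1.32). The c-di-GMP arrays lie above both DMSO arrays in these 2 genes, as they do in Ado (0.79, 0.28 to 1.29) and Rcc1l (1.04, 0.32 to 1.76). All 4 were undetected on the second DMSO array.

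Both c-di-GMP arrays were lower than both DMSO arrays in Zfp52 and Map2k7. The zinc finger gene Zfp52 read 7.79 and 7.82 with c-di-GMP, against 8.56 and 8.21 with DMSO, a difference of -0.76 (-1.24 to -0.28). Map2k7, a kinase gene of the JNK pathway, read 6.48 and 7.05 with c-di-GMP, against 7.70 and 9.28 with DMSO, a difference of -0.93 (-1.55 to -0.31). The MHC class I-like gene H2-T3 read 5.54 and 5.53 with c-di-GMP, against 7.54 and 4.75 with DMSO. Its -2.01 (-3.34 to -0.68) was the largest difference among measured genes and rests on the first DMSO array alone. In H2-T3, A130010J15Rik, Rab7b and Rasl11a the 2 DMSO arrays fell on opposite sides of both c-di-GMP arrays.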

How the data were processed

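Total RNA of 8 MEF samples was measured on Illumina bead arrays of 1 colour. The main values are the deposited non-normalized intensity of each probe, each with the authors' detection p-value. The submitters' processing notes name GenomeStudio 2010.2. The sources used here state neither the background handling nor how the normalized intensity, which the authors deposited as well, was made. That second table served as an alternative, and its quartiles are nearly equal across arrays.

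Groups come from the titles. Gene names were updated through the mouse RefSeq table of GRCm38.p6: of 25697 probes 20733 carried a current symbol, 3872 a synonym and 122 a gene number in that table, 939 kept the file's name and 31 carry a date or blank and stayed unnamed. In R 4.3.3, neqc from limma 3.58.1 put the signals on a log2 scale after normexp correction (offset 16, background taken from the detection p-values) and quantile normalization. Probes with a detection p-value under 0.05 on at least 2 arrays were kept (13026), and the probe of highest mean stood for a gene, which gave 9541 genes. The limma model had 1 mean per group, with Benjamini-Hochberg adjustment over the 9541 genes, two-sided tests and a threshold of 0.05. It had 4 residual and 2.77 prior degrees of freedom with all 8 arrays, and 3 and 4.22 without the second knockout DMSO array. Intervals of 95% are from the same moderated statistics, unadjusted. The equivalence test takes the larger p of a pair of one-sided moderated tests against -1 and 1 log2 units, adjusted in the same way. The script was tested on simulated data. A bound ("at least N-fold") compares the bright group's mean with a floor for the dim group: on each array the lowest detected signal, or the gene's own where that is higher. Array number limits the precision.

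Named genes are the 10 smallest p-values and the 10 brightest probes of the knockout arrays, wild-type calls measured there, list members and Ticam1. The knockout arrays, the gene lists and the tests were chosen with earlier results of these data known. Of the genes in the 25 lists, 47 list entries were not analysed here, and 1 measured member is not reported here by name. Replicate numbers did not pair the samples: the deviations from group means of same-numbered arrays correlated at 0.007 between the knockout groups and at -0.026 to 0.064 elsewhere.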

Additional observations from a re-analysis of the deposited data

Results flagged for a closer look

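The knockout response to c-di-GMP was tested against the wild-type response gene by gene, and the genes for which that test passed are set out here. With all 8 arrays there were 4, each with a smaller response in knockout cells: Calhm6 (-5.23), a membrane protein gene, Ifnb1 (-4.70), Cd274 (-4.47), which encodes PD-L1, and Oasl1 (-4.12). Calhm6, Ifnb1 and Oasl1 were detected on 0 knockout arrays and Cd274 on 1, so these differences of log2 values rest on readings at or near background in knockout cells. Calhm6 and Ifnb1 were detected on the wild-type c-di-GMP arrays alone, passed the detection filter through that group, and so had to differ. The size of their differences depends on the background readings and is no measured ratio.

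Without the second knockout DMSO array there were 83. Among the wild-type risers measured in knockout cells these were Has2 (-3.83), Enpp4 (-2.71), Il15 (-2.62), Rgcc (-2.59), Cenpj (-2.57), Xdh (-2.42), Casp4 (-2.39), Aftph (-2.11), Kif5c (-2.10), Ppm1k (-2.06), Tnfaip3 (-1.87) and Lrch1 (-1.86), each again a log2 difference of responses, knockout minus wild type. None of these 12 passed with all 8 arrays in limma, where their unadjusted p-values were under 0.05. They were chosen for their wild-type rise, which is 1 side of this difference. Rgcc, Xdh and Kif5c were undetected on both wild-type DMSO arrays, so the size of their differences depends on background readings.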

How the results depend on the processing

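Limma called 0 genes in knockout cells under every setting run except without the first knockout DMSO array (5480), with 7 to 513 genes at an unadjusted p under 0.05 in the others. With all 8 arrays 2136 intervals lay inside ±1, 0 genes passed the equivalence test, the median interval reached 0.907 to either side, and 57 wild-type genes and 4 differences of responses were called. Leaving out 1 array at a time gave 339 to 6582 intervals inside, 0 to 7086 equivalent genes, 0.551 to 1.30 for the reach, 0 to 560 wild-type calls, 0 to 4628 differences and 0 to 5480 knockout calls. Leaving out the second knockout DMSO array before normalization gave 6319 inside, 6857 equivalent, a reach of 0.567, 527 wild-type calls and 48 differences. Median scaling gave 0 inside, a reach of 1.90, and 0 wild-type calls and 0 differences (110 and 72 at an unadjusted p under 0.05), and put the median knockout difference over all genes tested at 0.93, against 0.10 under quantile normalization. No background correction gave 4773 inside, 5069 equivalent, a reach of 0.560 and 15 differences, and the authors' normalized values gave 4484 inside, 4778 equivalent, a reach of 0.587, 86 wild-type calls and 15 differences. The 4 knockout arrays alone left 617 inside. Array weights gave 0 inside, a reach of 1.40, 492 wild-type calls and 1 difference. Both knockout DMSO arrays received the same weight (0.109), so this setting does not set the weak array apart from the other. Without a detection filter 2587 genes were equivalent. Testing the 7742 measured genes alone gave 0 wild-type calls and 0 differences (410 and 302 unadjusted), every probe by itself 1 difference, and a trended prior 0 (519 unadjusted). With the replicate number as a block there were 0 differences (419 unadjusted) and 12 wild-type calls, 0 knockout calls and 1894 intervals inside. A margin of 2 log2 units made 6113 equivalent, and intervals of 99% left 472 inside.

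Further settings, all without the second knockout DMSO array, were chosen after seeing the data. The 3 other knockout arrays alone gave 7331 inside, 7548 equivalent and a reach of 0.457. Median scaling gave 0 inside, 107 wild-type calls and 11 differences. No background correction gave 7736, 7739, 0.365, 998 and 266, in the order inside, equivalent, reach, wild-type calls and differences. In that order the authors' values gave 7737, 7740, 0.353, 998 and 259, no detection filter 6590, 7114, 0.499, 478 and 47, every probe 8648, 9423, 0.572, 617 and 81, and a trended prior 6601, 7062, 0.520, 1002 and 243. A margin of 0.75 left 4417 equivalent and a margin of 0.5 left 0, and intervals of 99% left 4108 inside. The cause of these shifts was not tested.

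Rasl11a in knockout cells was 0.77 without the first DMSO array and -0.92 without the second. The Irf1 difference of responses, positive with all 8 arrays, was 2.73 when the first knockout DMSO array was left out and -1.85 when the second was, and with that array left out also -1.85 without background correction, -1.81 in the authors' values and -1.85 with a trended prior. In the same order the Tlr2 difference was 1.43 and -2.30. Limits are the single sound DMSO array, 1 time point, the absence of any stated independence of replicates, and dim genes, whose intervals are widest.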

Other observations

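Some list members not described above were called in wild-type cells without the second knockout DMSO array (limma adjusted p from 0.000953 to 0.00923) and were measured in knockout cells. Ddit4, a stress-induced inhibitor of mTOR signalling, differed by -0.09 (95% interval -0.58 to 0.40) in knockout cells and -2.18 in wild-type cells. The sterol transfer gene Stard4 differed by 0.04 (-0.44 to 0.53) in knockout cells and -1.37 in wild-type cells, and Ch25h, which makes an oxysterol, by 0.28 (-0.23 to 0.80) and 1.44. Dusp1, a phosphatase gene of MAP kinases, stood at 0.03 (-0.44 to 0.50) in knockout cells and -1.18 in wild-type cells, and Zfp36, whose product destabilises cytokine mRNAs, at 0.10 (-0.40 to 0.60) and 1.43. The necroptosis effector gene Mlkl stood at 0.10 (-0.40 to 0.60) in knockout cells and 1.33 in wild-type cells. None of these 6 was called in knockout cells, and with all 8 arrays none was called in wild-type cells either. The test of the difference between genotypes passed for Ddit4 alone (adjusted p = 0.0268, against 0.0780 to 0.157 for the other 5). These genes were chosen after their values were seen.

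The largest difference between the 2 knockout c-di-GMP arrays among measured genes was 1.44 log2 units, in Prpf38b, a splicing factor gene. Between the 2 knockout DMSO arrays it was 9.09, in LOC100048187.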
